A study of Mus musculus with 8 samples.

Results

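Follicular B cells of mice that carried an antigen receptor of the IgM class specific for hen egg lysozyme (HEL) were compared with and without that antigen. The comparison rests on 4 of the 8 arrays of the study, chosen by their titles: 2 arrays of unstimulated IgM cells, called U1 and U2 after the experiment numbered in the title, and 2 arrays of HEL-stimulated IgM cells, called H1 and H2. The other 4 arrays held cells with IgMG, a chimera whose extracellular spacer, transmembrane and cytoplasmic parts are those of IgG1, in 2 unstimulated and 2 HEL-stimulated samples. They entered the fit to estimate the spread and served once to set the responses of the 2 receptors side by side. Each array held total RNA of sorted cells pooled from several mice, so the spread between arrays is that of pools and not of single animals. U1 and H2 each came from 2 mice and 1 sort, U2 and H1 each from 4 mice and 2 sorts, so the size of the pool was balanced over the groups. Not stated in the labels used here were the strain and age of the mice, the dose of HEL and how long the cells were stimulated. Nothing in the labels says whether a HEL array and an unstimulated array shared mice.

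A B cell antigen receptor is a membrane immunoglobulin paired with the signalling chains CD79A and CD79B. Antigen binding starts kinases of the SRC and SYK families, which in turn raise calcium and activate the MAP kinase, PI3 kinase, NFAT and NF-kB pathways. Within the first hours a resting follicular B cell transcribes immediate-early genes, leaves its resting programme, enlarges and prepares to meet helper T cells. Stimulation through the receptor alone does not complete this programme.

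The values were array signals on a linear scale, 1 for each probe set, and changes are differences of log2(signal + 16), HEL minus unstimulated, with the standard error (SE) of a limma fit over all 8 arrays. The added 16 understates the change of dim genes. A probe set is said to have risen or fallen only where its Benjamini-Hochberg adjusted p over all 12422 tested probe sets was under 0.05. Where a gene had more than 1 probe set, its brightest one stands for it. With 2 arrays a group an exact permutation test of single values cannot go below p = 0.333, so the calls lean on the spread that limma shares across probe sets. Of the 191 called genes chosen for naming, 73 kept their call in each of the 8 fits that left out 1 array. For the others the arrays without which the call was lost are given, with the log2 change in that fit.

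The labelled cell type was checked against its markers. Transcripts of follicular B cells were abundant, with Cd79a signals of 5637 and 6863 on the unstimulated arrays and 6572 and 7598 on the HEL arrays. Ms4a1, which encodes CD20, had signals of 5641 and 4888 on the unstimulated arrays and 4377 and 4480.4 on the HEL arrays. Fcer2a, which encodes CD23 and separates follicular from marginal zone cells, had signals of 1099 and 3434 on the unstimulated arrays and 1969.6 and 2394 on the HEL arrays. These 3 did not pass, but of the 9 measured follicular markers Cd79b, Cd22, Ighd and Pax5 fell and Blk rose. The summed signal of the 9 was 29297 and 31769 on the unstimulated arrays and 25026 and 27999.9 on the HEL arrays, with a median log2 change of -0.36. Of 13 measured T cell markers 8 lay under a signal of 50 on all 4 IgM arrays, Cd2 fell and Cd5 rose, and the summed signal was 1889.9 and 1709 unstimulated and 1178 and 1279 with HEL. None of 10 natural killer, 17 myeloid, 6 dendritic, 7 erythroid, 3 platelet and 4 plasma cell markers rose or fell. Some transcripts of other cells were nevertheless bright. The globin gene Hba-a1 had signals of 10617 and 10341 on the unstimulated arrays and 11821 and 12305 on the HEL arrays and did not pass. Alas2, of heme synthesis in red cells, had a log2 change of -0.63, and the 7 erythroid markers summed to 16459 and 14413 unstimulated and 16284 and 14322 with HEL, with a median of -0.20. The summed signal of the myeloid markers was 5973 on U1, 3711 on U2, 5423 on H1 and 1423 on H2, with 2 of the 17 under 50 on all 4 arrays, and their part in the results was not tested. In such sorted pools fewer cells of a type and less RNA per cell cannot be told apart. H2 also stood apart in the 5'-to-3' signal ratio of the Gapdh control probe sets, a measure of RNA integrity and labelling, which was 0.755 on H2 and between 0.259 and 0.373 on the other 3 IgM arrays.

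Antigen changed 817 of the 12422 probe sets (6.58%), of which 421 rose (3.39%) and 396 fell (3.19%). Counted by gene, 323 of 8251 genes rose (3.91%) and 346 fell (4.19%). At least 2-fold changes were called for 515 probe sets (4.15%). The rises were larger at the top end: 64 probe sets rose and 21 fell at least 4-fold, and 19 rose and 2 fell at least 8-fold. Genes that rose were typically of moderate brightness before stimulation, with a median signal of 165.6 that became 492.1. Those that fell started from a median of 458.1 and ended at 190.8, while the median of all probe sets was 41.9. All 817 changed in the same direction in both numbered experiments, a property that a call nearly requires, and the 2 log2 ratios differed by more than 1 for 14 rises and 25 falls. For comparison, in 50.2% of all probe sets the HEL and unstimulated signals did not overlap, so the lack of overlap alone says little with 2 arrays a group. The number of calls depended on single arrays. It was 189 without U1, 294 without U2, 722 without H1, 256 without H2, and 491 and 490 without the first and second HEL array of the IgMG cells, against 885 and 888 without an unstimulated IgMG array. With the Gapdh ratio as a covariate 383 probe sets were called.

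**Figure D1:**
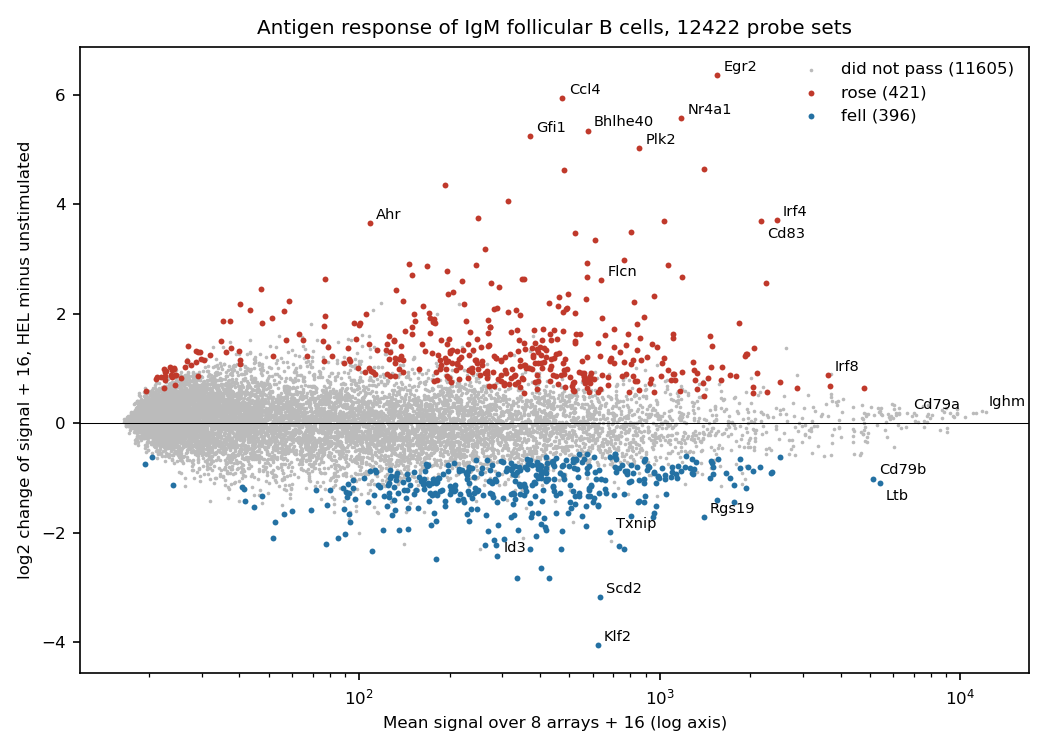
Change of every tested probe set with HEL in IgM follicular B cells. The horizontal axis is the mean signal over 8 arrays plus 16 on a log scale, the vertical axis the change of log2(signal + 16), HEL minus unstimulated, and each point is 1 of 12422 probe sets, red where it rose (421), blue where it fell (396) and grey where it did not pass. The largest rises reach 6.36 and the largest fall -4.05, and the receptor transcripts Ighm and Cd79a lie near 0 at the bright end.

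Exactly 6 genes were dim on both unstimulated arrays, under a signal of 50, and bright on both HEL arrays, over 500. They were the zinc finger factor Egr2, its corepressor partner Nab2, the chemokine Ccl4, the repressors Bhlhe40 and Gfi1, and Irs2, an adaptor of insulin-type receptors. No gene did the reverse. Egr2 had signals of 21.6 and 38.3 on the unstimulated arrays and 3683 and 3692 on the HEL arrays, a log2 change of 6.36 ± 0.24 (SE; adjusted p = 2.38e-05). Bhlhe40, a basic helix-loop-helix repressor that also acts in the circadian clock, had signals of 16.6 and 14.6 on the unstimulated arrays and 1261 and 1282 on the HEL arrays (5.35 ± 0.27; adjusted p = 5.73e-05). The HEL signals of both genes lay far above the unstimulated ones, which the rule that chose them requires. Gfi1, a repressor that acts throughout blood cell development, gave 8.2 and 10.6 on the unstimulated arrays and 786 and 1149 on the HEL arrays (5.25 ± 0.37; adjusted p = 0.000267). Irs2 had signals of 35.2 and 35.3 on the unstimulated arrays and 556 and 814 on the HEL arrays (3.75 ± 0.25; adjusted p = 0.000232). The same held for Gfi1 and Irs2.

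**Figure D2:**
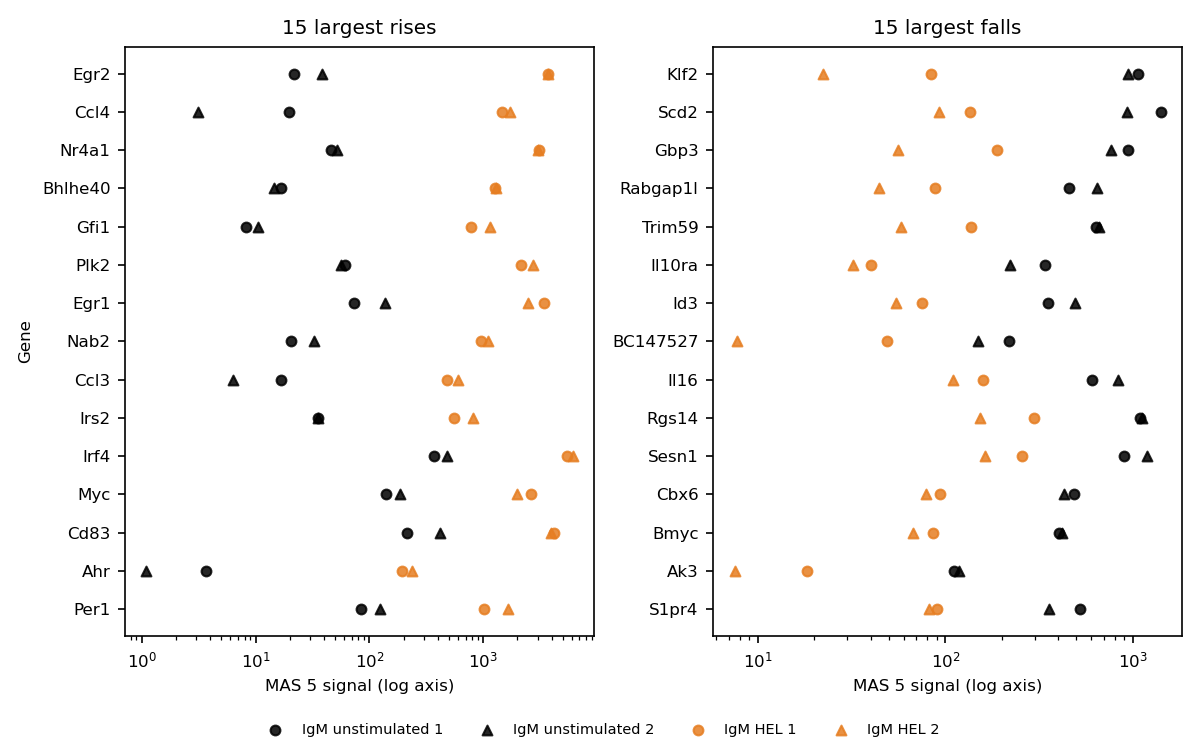
Signals of the 15 genes with the largest rises (left) and the 15 with the largest falls (right) on the 4 IgM arrays, by the rule that chose them, on a log axis. Black marks are unstimulated arrays and orange marks HEL arrays, circles experiment 1 and triangles experiment 2. Among the falls the H2 signal lies below the H1 signal for all 15 genes, with Klf2 at 22.2 on H2 and 83.9 on H1.

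Immediate-early transcription factors were prominent among the largest rises. Of 4 measured Egr and Nab genes 3 rose (75.0%, against 3.91% of all genes). Egr1, which like Egr2 encodes a zinc finger activator induced through MAP kinase signalling, had signals of 72.7 and 136 on the unstimulated arrays and 3396 and 2476 on the HEL arrays (4.65 ± 0.28; adjusted p = 0.000174). Nab2, whose product binds Egr proteins and holds back their activity, rose from 20.5 and 32.3 to 956 and 1093 (4.63 ± 0.19; adjusted p = 2.72e-05), whereas Nab1 had a log2 change of -0.36 that did not pass. Both measured Nr4a orphan receptor genes rose. Nr4a1, widely used as a reporter of antigen receptor signalling, had signals of 46.3 and 51.6 on the unstimulated arrays and 3120.5 and 3023 on the HEL arrays (5.57 ± 0.35; adjusted p = 0.000177). Nr4a2 stayed dim and rose from 12.2 and 15.3 to 45.6 and 54.9 (1.15 ± 0.28). Plk2, a kinase gene of the polo family, also rose, with signals of 60.8 and 56.1 on the unstimulated arrays and 2131 and 2717 on the HEL arrays (5.03 ± 0.20; adjusted p = 2.38e-05). The calls of Egr1, Nab2, Nr4a1 and Plk2 held without any 1 array. For Nr4a2 (1.05 to 1.25) the call was lost without any 1 of the 4 IgM arrays, or without any 1 IgMG array.

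Among 12 AP-1, ATF and small Maf factors 4 rose (33.3%, against 3.91% of all genes) and none fell. Their median was 0.70 (0.41 with the Gapdh ratio as a covariate and 1.22 without H1). Junb, an AP-1 subunit, had signals of 199 and 224 on the unstimulated arrays and 899 and 1316 on the HEL arrays (2.28 ± 0.21; adjusted p = 0.00104), and a second Junb probe set rose too. Fos had 23.9 and 42.9 on the unstimulated arrays and 111 and 106 on the HEL arrays (1.36 ± 0.35; adjusted p = 0.0599). Fosb had signals of 88.9 and 80.2 on the unstimulated arrays and 148 and 116 on the HEL arrays (0.55 ± 0.34; adjusted p = 0.434). Jun had signals of 30.1 and 10.6 on the unstimulated arrays and 25.2 and 17.1 on the HEL arrays (0.08 ± 0.44; adjusted p = 0.955), so none of these 3 passed and Jun was dim throughout. Fos passed in 4 of the 18 alternatives, with adjusted p = 0.0311 and 0.0337 by limma without the first and second unstimulated IgMG array. Atf3, a stress-inducible factor, rose from 36.8 and 38.2 to 204 and 363 (2.43 ± 0.34). The small Maf gene Mafk rose from 302 and 234 to 873 and 746 (1.55 ± 0.20). The calls of Junb and Mafk held without any 1 array. For Atf3 (2.42 and 2.04) the call was lost without U1 or H2. The number of rises in the list was 2 without U1, 3 without U2, 4 without H1 and 2 without H2.

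Several other regulators rose from low levels. Of 16 helix-loop-helix, zinc finger and cAMP-linked regulators 8 rose and 2 fell, with a median of 0.80. Crem, a gene of the cAMP-responsive factor family, had signals of 49.0 and 35.4 on the unstimulated arrays and 605 and 424 on the HEL arrays (3.18 ± 0.26; adjusted p = 0.000531). Ahr, the ligand-activated aryl hydrocarbon receptor, had signals of 3.7 and 1.1 on the unstimulated arrays and 194 and 239 on the HEL arrays (3.66 ± 0.34; adjusted p = 0.00105). The nuclear factor gene Nfatc1, a calcium-regulated factor that induces its own short isoform, rose from 158 and 198 to 1569 and 1470.5 (2.99 ± 0.16; adjusted p = 8.75e-05), the only rise among 16 calcium and NFAT genes. Tgif1, a homeobox repressor, rose from 242 and 356 to 2356 and 2208 (2.89 ± 0.26). The calls of Nfatc1, Tgif1, Ahr and Crem held without any 1 array. Of the 2 falls, Gadd45a had signals of 306 and 355 on the unstimulated arrays and 188 and 78.3 on the HEL arrays (-1.32 ± 0.32). The kinase gene Sgk1 had signals of 190.5 and 242 on the unstimulated arrays and 111 and 117 on the HEL arrays (-0.83 ± 0.18). For Gadd45a (-1.42, -1.22 and -0.76) the call was lost without U1, U2 or H2, or without any 1 IgMG array. For Sgk1 (-0.99 to -0.67) the call was lost without any 1 of the 4 IgM arrays, or without either IgMG HEL array.

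Myc, the growth-promoting factor, had signals of 140.4 and 187 on the unstimulated arrays and 2635 and 1981 on the HEL arrays, a log2 change of 3.69 ± 0.21 (adjusted p = 0.00014). Of the 10 measured members of the network of Myc and Max, Myc included, 2 rose and 1 fell. Mnt, which competes with Myc for the partner Max, rose from 219.5 and 195 to 462 and 665 (1.35 ± 0.20). Mxd4, another antagonist, fell from 519 and 726 to 256 and 235 (-1.27 ± 0.19). Bmyc, a short relative of Myc outside that list, fell from 403 and 419 to 85.9 and 66.9 (-2.21 ± 0.23; adjusted p = 0.00165). Myc and Bmyc therefore moved in opposite directions, each with no overlap between the groups, as for every called probe set. The calls of Myc and Bmyc held without any 1 array. For Mnt (1.43 and 1.28) the call was lost without U1 or U2. For Mxd4 (-1.04 and -1.21) the call was lost without U2 or H2.

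Promoter sequences of responding genes are shown to give the letters of the motifs that are linked to these factors in textbooks. They come from RefSeq, build GRCm38.p6, and are printed 5' to 3' on the strand of the gene, with the match in capitals. The 1st set holds a CArG box, the recognition element of serum response factor, in Egr2 (chr10:67537484-67537513, plus strand, 82 to 53 bases before a listed start) and Zfp36 (chr7:28379232-28379331, minus strand, 103 to 4 bases before the start). The 2nd holds a palindromic cAMP response element in Plk2 (chr13:110394936-110395035, plus strand). The 3rd holds the E-box CACGTG, which Myc and Max, the clock factors and Bhlhe40 can bind, in Egr2 (chr10:67535460-67535489, plus strand), Irs2 (chr8:11008930-11009029, minus strand) and Per1 (chr11:69098771-69098800, plus strand). A match is a description of letters and not a bound site.
Egr2, CArG box: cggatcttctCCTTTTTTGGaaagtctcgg
Zfp36, CArG box: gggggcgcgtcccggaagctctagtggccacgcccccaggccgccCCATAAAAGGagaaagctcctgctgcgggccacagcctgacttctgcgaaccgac
Plk2, cAMP response element: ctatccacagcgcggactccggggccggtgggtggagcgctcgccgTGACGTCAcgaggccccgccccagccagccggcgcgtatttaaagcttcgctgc
Egr2, E-box: aatcctcccgccCACGTGcaccgacggcag
Irs2, E-box: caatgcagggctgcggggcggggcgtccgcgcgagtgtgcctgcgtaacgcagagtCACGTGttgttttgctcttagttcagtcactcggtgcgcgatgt
Per1, E-box: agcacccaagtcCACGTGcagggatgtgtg

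Over the 250 bases before the start, 20.2% of 262 genes that rose held the E-box CACGTG, against 8.72% of 298 that fell and 9.93% of all 6576 measured genes with a RefSeq promoter. The element TGACGTCA was found in 5.34% of the rises, 1.01% of the falls and 2.69% of all. Zinc finger sites of the Egr type (GCGTGGGCG or GCGGGGGCG) were in 10.3%, 9.06% and 6.17%. AP-1 sites (TGANTCA) were in 3.44%, 7.38% and 6.71%, and kappaB sites in 3.05%, 6.71% and 5.66%. Among the 34 genes with a promoter that rose at least 4-fold the shares were 23.5% for the E-box, 11.8% for TGACGTCA, 17.6% for the Egr sites and 5.88% each for the AP-1 and kappaB sites. Among the 15 that fell at least 4-fold they were 20% for the E-box, 0% for TGACGTCA and 26.7% for the Egr sites. There the AP-1 and kappaB sites stood at 13.3% each. CArG boxes were found in 1.15%, 2.35% and 1.72%, the interferon-stimulated response element in 4.96%, 5.37% and 3.39%, the amino acid response element TGATGNAA in 2.67%, 4.03% and 2.63%, and TATAAA in 6.49%, 8.72% and 10.9%. Both strands were searched, a gene counted once over all its listed starts, and the mean number of promoter windows a gene was 1.28 for the rises, 1.46 for the falls and 1.28 for all. These shares are given without a test, and base composition was not matched.

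**Figure D3:**
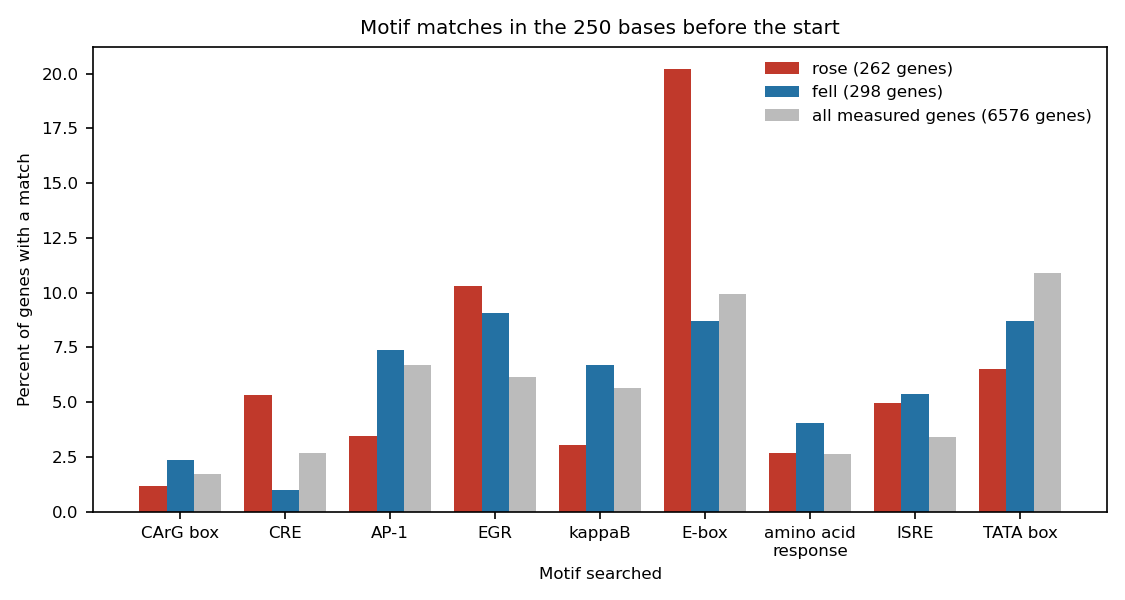
Percent of genes with a match to each of 9 motifs in the 250 bases before the start, for genes that rose (262, red), genes that fell (298, blue) and all measured genes with a promoter (6576, grey). The E-box stands at 20.2% among the rises and at 9.93% among all genes.

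Of 27 genes for cytokines and other signals between cells 3 rose and 3 fell (11.1% each, against 3.91% and 4.19% of all genes). Ccl4 and Ccl3, chemokines that attract T cells, were the strongest cytokine-type rises. Ccl4 had signals of 19.6 and 3.1 on the unstimulated arrays and 1472 and 1704 on the HEL arrays (5.94 ± 0.29; adjusted p = 5.73e-05). Ccl3 had signals of 16.8 and 6.4 on the unstimulated arrays and 482 and 606 on the HEL arrays (4.36 ± 0.34; adjusted p = 0.000423). The inflammatory cytokine gene Tnf rose from 74.4 and 57.2 to 247 and 346 (1.92 ± 0.24). Among the falls, Il16 fell from 607 and 829 to 158 and 109.6 (-2.29 ± 0.21; adjusted p = 0.00104). Il12a fell from 232 and 214 to 45.3 and 62.2 (-1.79 ± 0.19; adjusted p = 0.00171). The lymphotoxin gene Ltb, needed to organise follicles, fell from 7332 and 7242 to 2970.0 and 3895 (-1.10 ± 0.17; adjusted p = 0.00997). Outside the list Tgfb3 rose from 43.3 and 29.5 to 211 and 172 (1.99 ± 0.23). All of these except Ltb kept their call without any 1 array (Ccl4, Ccl3, Tnf, Il16, Il12a and Tgfb3). For Ltb (-1.09 and -1.10) the call was lost without U1 or U2.

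Of 23 cytokine receptor genes 3 rose and 1 fell. The decoy receptor Il1r2 rose from 31.1 and 27.8 to 158 and 129 (1.80 ± 0.43). The shared signalling chain Il6st rose from 19.4 and 28.3 to 86.3 and 108 (1.51 ± 0.27). A second Il6st probe set (0.46) did not pass. The TNF receptor Tnfrsf1b rose from 154 and 140.5 to 406 and 330.0 (1.23 ± 0.23). Il10ra, the binding chain of the IL-10 receptor, fell from 339.8 and 221 to 40.1 and 32.1 (-2.48 ± 0.34; adjusted p = 0.00562). None of the 4 calls was independent of single arrays. For Il1r2 (1.67 to 1.94) the call was lost without any 1 of the 4 IgM arrays, or without either IgMG HEL array. For Il6st (1.34, 1.67 and 1.37) the call was lost without U1, U2 or H2. For Tnfrsf1b (1.08 to 1.37) the call was lost without any 1 of the 4 IgM arrays. For Il10ra (-2.19 and -2.37) the call was lost without U1 or H2.

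The surface molecules that B cells show to T cells changed in both directions. Cd83, an activation marker that stabilises MHC class II and CD86 at the surface, had signals of 213 and 416 on the unstimulated arrays and 4206 and 3903 on the HEL arrays (3.69 ± 0.28; adjusted p = 0.00039). Cd86, a ligand of CD28, had 96.8 and 89.1 on the unstimulated arrays and 481 and 746 on the HEL arrays (2.50 ± 0.42; adjusted p = 0.0121). Plaur, the urokinase receptor, had signals of 109 and 164 on the unstimulated arrays and 652 and 586 on the HEL arrays (2.08 ± 0.28). Cd40, which receives T cell help, fell from 385 and 402 to 235 and 189.8 (-0.85 ± 0.15). Cd48, a ligand of the SLAM family, fell from 1434 and 1045 to 625 and 606 (-0.97 ± 0.21). Cd180, a relative of Toll-like receptors, rose from 55.8 and 65.3 to 309.8 and 210.3 (1.83 ± 0.25). The T cell and B-1 marker Cd5 rose from 21.1 and 22.8 to 88.0 and 118 (1.64 ± 0.30). The call of Cd83 held without any 1 array. The others missed the threshold in some fits. For Cd86 (2.55, 2.45 and 2.19), Cd40 (-0.88, -0.82 and -0.70) and Cd5 (1.61, 1.67 and 1.46) the call was lost without U1, U2 or H2. For Plaur (1.82) and Cd180 (1.74) the call was lost without U1. For Cd48 (-1.20 to -0.75) the call was lost without any 1 of the 4 IgM arrays, or without either IgMG HEL array. Cd2, which B cells of mice also express, fell from 1588 and 1416 to 805 and 906 (-0.80 ± 0.17). For Cd2 (-0.89 to -0.72) the call was lost without any 1 of the 4 IgM arrays, or without either IgMG HEL array.

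Some receptors that place the cell in lymphoid tissue also changed. Ccr7, which draws activated B cells towards the T cell zone, rose from 268 and 403 to 995 and 1655 (1.92 ± 0.27; adjusted p = 0.00614). Cxcr4, the receptor of CXCL12, rose from 203 and 223 to 749.8 and 724 (1.72 ± 0.18; adjusted p = 0.00172). Cxcr5, which holds B cells in follicles, had signals of 434 and 618 on the unstimulated arrays and 649 and 746 on the HEL arrays (0.41 ± 0.21; adjusted p = 0.325). S1pr4, a sphingosine 1-phosphate receptor, fell from 521 and 359 to 90.5 and 81.4 (-2.14 ± 0.27; adjusted p = 0.0033). Of 16 homing and adhesion genes these were the only calls, 2 rises (12.5%, against 3.91% of all genes) and 1 fall (6.2%, against 4.19%). The calls of Cxcr4 and S1pr4 held without any 1 array. For Ccr7 (1.63) the call was lost without U1. Cd1d1, a lipid-presenting molecule enriched on marginal zone cells, fell from 400.1 and 490.5 to 168 and 89.2 (-1.72 ± 0.25). For Cd1d1 (-1.58) the call was lost without U2. It was the only call among 6 measured marginal zone markers, whose median log2 change was 0.04. Their summed signal was 979 and 1328 on the unstimulated arrays and 1101 and 1058 on the HEL arrays.

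The antigen receptor complex itself fell in part. Ighm had signals of 10688 and 10500.4 on the unstimulated arrays and 11203 and 13828 on the HEL arrays (0.23 ± 0.23; adjusted p = 0.644), and Cd79a did not pass either (0.18 ± 0.20). Cd79b, its dimer partner, fell from 6849.6 and 6443 to 2877 and 3759 (-1.01 ± 0.17; adjusted p = 0.012). Ighd, the heavy chain of IgD, fell from 447 and 539 to 286 and 275 (-0.78 ± 0.15). Among the 26 genes of the signalling core 1 rose (3.8%, against 3.91% of all genes) and 4 fell (15.4%, against 4.19%). Their median was -0.15 (-0.24 without U2 and -0.23 without H2). The kinase gene Syk fell from 3399 and 3052 to 1897 and 1537 (-0.91 ± 0.19). The adaptor Blnk fell from 2872 and 2257 to 1201 and 1038 (-1.18 ± 0.18). Ptprc, which encodes the phosphatase CD45, fell from 2162 and 2159 to 1497 and 1256 (-0.65 ± 0.16). The SRC-family kinase Blk rose from 2929 and 2877 to 4418 and 4977 (0.69 ± 0.16), as did its second probe set. Of the 2 other Ptprc probe sets 1 had very dim means of 1.05 and 8.6 (0.525 ± 0.143). The other went from a mean of 349 to 653 (0.66 ± 0.72), and neither passed. A second, bright Blnk probe set had a log2 change of -0.17 and did not pass. Every one of these calls depended on single arrays. For Cd79b (-0.97 and -1.05) the call was lost without U1 or U2. For Ighd (-0.91 to -0.65) the call was lost without any 1 of the 4 IgM arrays. For Syk (-0.83, -0.99 and -0.76) the call was lost without U1, U2 or H2, or without either IgMG HEL array. For Blnk (-1.005 and -1.07) the call was lost without U1 or H2. For Ptprc (-0.78 to -0.53) and Blk (0.60 to 0.77) the call was lost without any 1 of the 4 IgM arrays, or without either IgMG HEL array. The number of falls in the list was 0 without U1, 1 without U2, 3 without H1, 1 without H2 and 2 without either HEL array of the IgMG cells.

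Among 15 inhibitory coreceptors and phosphatases, which restrain the receptor, 3 rose and 3 fell. Ptpn22, a tyrosine phosphatase of SRC and SYK-family kinases, had signals of 179 and 196 on the unstimulated arrays and 937 and 919 on the HEL arrays (2.22 ± 0.25; adjusted p = 0.00196). The lipid phosphatase Inpp5d (SHIP1) rose from 599.9 and 561 to 1169.5 and 1613 (1.22 ± 0.17). Cd22, an inhibitory coreceptor that binds sialic acid, had 1242 and 1326 on the unstimulated arrays and 645 and 641 on the HEL arrays (-0.98 ± 0.14; adjusted p = 0.00585). Its 2 unstimulated signals and its 2 HEL signals were each within a narrow range. The inhibitory Fc receptor Fcgr2b fell from 463 and 470.2 to 266 and 233 (-0.86 ± 0.14). Cd200 fell from 148 and 206 to 58.7 and 85.3 (-1.13 ± 0.27). Outside the list Csk, the kinase that holds SRC-family kinases inactive, fell from 1312 and 1039 to 569.5 and 666 (-0.91 ± 0.15). A second, dimmer Csk probe set had a log2 change of -0.14 that did not pass. The calls of Ptpn22 and Cd22 held without any 1 array. For Inpp5d (1.27 and 1.17) the call was lost without U1 or U2. For Fcgr2b (-0.88, -0.85 and -0.77) the call was lost without U1, U2 or H2. For Cd200 (-1.35 to -0.91) the call was lost without any 1 of the 4 IgM arrays, or without either IgMG HEL array. For Csk (-0.74 and -0.80) the call was lost without U1 or H1. The rises in the list numbered 1 without U1, 1 without U2, 5 without H1 and 2 without H2, and the falls 1 without U1, 1 without U2, 2 without H1 and 1 without H2.

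Feedback genes of MAP kinases and G proteins gave steady calls in both directions, with 4 rises and 3 falls among 12. Dusp2, a phosphatase of MAP kinases in the nucleus, had signals of 865 and 537 on the unstimulated arrays and 3698 and 4538 on the HEL arrays (2.56 ± 0.22; adjusted p = 0.000633). Dusp6, which acts on ERK in the cytoplasm, had signals of 696 and 645 on the unstimulated arrays and 156 and 181 on the HEL arrays (-1.90 ± 0.16; adjusted p = 0.000671). The 2 phosphatase genes thus moved in opposite directions. Gem, a small GTPase, rose from 46.6 and 60.6 to 583 and 430.4 (2.90 ± 0.21). The early gene Ier2 rose from 300.5 and 349 to 1572 and 1795 (2.32 ± 0.14; adjusted p = 0.000177). Rgs14, which shortens signals of G protein-coupled receptors, fell from 1095 and 1115 to 296 and 153 (-2.29 ± 0.26). Rgs19, of the same family, fell from 1987 and 2048 to 564 and 647 (-1.71 ± 0.19). Other, dimmer Rgs19 probe sets had log2 changes of -0.68 and -0.045 and did not pass. Both counts were the same in every fit without 1 IgM array. Each named gene (Dusp2, Dusp6, Gem, Ier2, Rgs14 and Rgs19) kept its call without any 1 array. Itpr2, a calcium channel of the endoplasmic reticulum, fell from 1261 and 1068 to 605 and 663 (-0.86 ± 0.16). Of the 16 calcium and NFAT genes 1 rose and 1 fell (6.2% each, against 3.91% and 4.19% of all genes). For Itpr2 (-0.98 to -0.74) the call was lost without any 1 of the 4 IgM arrays.

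Of 17 NF-kB subunits and regulators 5 rose (29.4%, against 3.91% of all genes) and 2 fell (11.8%, against 4.19%). Their median was 0.73. Nfkbiz, a nuclear regulator of NF-kB, rose from 126 and 89.7 to 668 and 356 (2.04 ± 0.30; adjusted p = 0.00742). The subunit gene Relb rose from 156 and 205 to 548 and 493 (1.46 ± 0.21), though a second, dimmer Relb probe set had a log2 change of -0.04. Traf1, an adaptor of TNF receptors, rose from 5.2 and 56.6 to 186 and 153 (2.23 ± 0.49), with unlike signals on its unstimulated arrays. Ikbkg, the regulatory subunit of the kinase complex, fell from 186 and 209.9 to 111 and 53.1 (-1.19 ± 0.28; 0.17 for a second probe set that did not pass). Birc3 fell from 889.5 and 861 to 607 and 570.5 (-0.56 ± 0.13). Single arrays decided all 5 of these. For Nfkbiz (1.82) the call was lost without U2. For Relb (1.28) the call was lost without U1. For Traf1 (1.35, 2.10 and 2.36) the call was lost without U1, H1 or H2, or without either IgMG HEL array. For Ikbkg (-1.27, -1.11 and -0.76) the call was lost without U1, U2 or H2, or without any 1 IgMG array. For Birc3 (-0.60 to -0.52) the call was lost without any 1 of the 4 IgM arrays, or without either IgMG HEL array. The number of rises was 2 without U1, 3 without U2, 5 without H1 and 3 without H2.

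Irf4, which directs the later choice between germinal centre and plasma cell, had signals of 372 and 480.4 on the unstimulated arrays and 5439.8 and 6091 on the HEL arrays (3.72 ± 0.17; adjusted p = 3.58e-05) and the largest gain in signal of all named genes. Its relative Irf8 rose from 2727 and 2352 to 4375 and 5024 (0.88 ± 0.15). Irf9, a part of the interferon response complex, fell from 840.4 and 943 to 526 and 424 (-0.89 ± 0.21). Among 15 B cell identity factors Mef2c rose from 266 and 266 to 571 and 676 (1.17 ± 0.15), while Pax5, Spib and Foxp1 fell. Pax5 had signals of 1129.5 and 1152 on the unstimulated arrays and 569 and 544 on the HEL arrays (-1.01 ± 0.22). Spib had signals of 4107 and 3032 on the unstimulated arrays and 1626 and 2189 on the HEL arrays (-0.90 ± 0.20). Foxp1 had signals of 914 and 831 on the unstimulated arrays and 434 and 316 on the HEL arrays (-1.20 ± 0.26). A second Foxp1 probe set had a log2 change of -0.20 that did not pass. Bcl6 and Prdm1, which oppose each other in later stages, did not pass. Bcl6 had signals of 415 and 596 on the unstimulated arrays and 626 and 395 on the HEL arrays (0.000 ± 0.24). Prdm1 had signals of 9.8 and 10.5 on the unstimulated arrays and 21.2 and 19.4 on the HEL arrays (0.47 ± 0.29). The calls of Irf4 and Mef2c held without any 1 array. For Irf8 (0.99, 0.78 and 0.79) the call was lost without U1, U2 or H2. For Irf9 (-1.04 to -0.74), Pax5 (-1.05 to -0.98), Spib (-1.12 to -0.68) and Foxp1 (-1.42 to -0.98) the call was lost without any 1 of the 4 IgM arrays, or without either IgMG HEL array. The falls among the identity factors numbered 0 without U1, 0 without U2, 1 without H1, 0 without H2 and 0 without either HEL array of the IgMG cells.

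Genes of the resting state held the largest fall. Klf2, a factor that keeps lymphocytes quiescent and recirculating, had signals of 1071 and 946 on the unstimulated arrays and 83.9 and 22.2 on the HEL arrays (-4.05 ± 0.38; adjusted p = 0.00105), the largest fall of all named genes. Of 10 Kruppel-like factors 5 fell and 1 rose, with a median of -1.08. Klf13 fell from 686 and 803 to 281 and 186 (-1.63 ± 0.25). Klf3 fell from 506 and 454 to 242 and 143 (-1.29 ± 0.23). Second, dimmer probe sets of Klf13 (-0.96) and Klf3 (-0.30) did not pass. Klf10, a gene induced early by growth factors, rose from 86.4 and 53.2 to 424 and 429.9 (2.40 ± 0.30; adjusted p = 0.0033). Klf2 and Klf10 kept their calls without any 1 array (Klf2 at -4.74 to -3.36 over the fits without 1 IgM array and Klf10 at 2.11 to 2.68). For Klf13 (-1.74, -1.52 and -1.35) and Klf3 (-1.21, -1.36 and -0.94) the call was lost without U1, U2 or H2. The falls in the family numbered 2 without U1, 1 without U2, 4 without H1 and 1 without H2.

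Targets and members of the FoxO group, which PI3 kinase signalling switches off, fell in 4 of 9 cases and rose in none. That was 44.4%, against 4.19% of all genes, with a median of -0.88. Sesn1, a stress protein that restrains mTORC1, had signals of 899.5 and 1185 on the unstimulated arrays and 256 and 163 on the HEL arrays (-2.25 ± 0.31; adjusted p = 0.00542). Ccng2, an unusual cyclin of resting cells, fell from 797 and 851 to 452 and 350.2 (-1.02 ± 0.15). Pdcd4, an inhibitor of translation, fell from 819.5 and 971 to 572 and 403 (-0.87 ± 0.21). Txnip, which limits glucose uptake and binds thioredoxin, had 1003 and 870.4 on the unstimulated arrays and 242 and 206 on the HEL arrays (-1.99 ± 0.15; adjusted p = 0.000355) and was not on the list, and a second, dim Txnip probe set had a log2 change of 0.60 that did not pass. Id3, which blocks E proteins, fell from 351 and 490.5 to 75.4 and 54.2 (-2.43 ± 0.21; adjusted p = 0.000711), the only call among 7 Id and E protein genes. The Id3 call was 14.3% of its list, against 4.19% of all genes. The calls of Txnip and Id3 held without any 1 array. For Sesn1 (-2.05 and -1.95) the call was lost without U2 or H2. For Ccng2 (-1.07, -0.97 and -0.84) the call was lost without U1, U2 or H2. For Pdcd4 (-0.99, -0.75 and -0.63) the call was lost without U1, U2 or H2, or without either IgMG HEL array. The falls numbered 1 without U1, 0 without U2, 3 without H1, 0 without H2 and 2 without either HEL array of the IgMG cells.

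Among the remaining large falls was Scd2, a fatty acid desaturase, with signals of 1408 and 933 on the unstimulated arrays and 136 and 92.6 on the HEL arrays (-3.18 ± 0.24; adjusted p = 0.000364), and a second Scd2 probe set fell by 1.96 on the log2 scale. Rabgap1l, a regulator of Rab GTPases, fell from 456 and 644 to 87.8 and 44.3 (-2.82 ± 0.29; adjusted p = 0.00156). Trim59 fell from 634 and 662 to 136 and 57.8 (-2.65 ± 0.32; adjusted p = 0.00287). Cbx6, a Polycomb group gene, fell from 486 and 430.4 to 93.4 and 79.0 (-2.22 ± 0.23; adjusted p = 0.00165). Ak3, a mitochondrial adenylate kinase, had 110.5 and 119 on the unstimulated arrays and 18.3 and 7.5 on the HEL arrays (-2.20 ± 0.29; adjusted p = 0.00437). For each of these genes both HEL signals lay below both unstimulated ones, as for every called fall. Emp3, a small membrane protein gene, fell from 2886 and 2139 to 919 and 888 (-1.44 ± 0.16). Tspan32, a tetraspanin gene of blood cells, fell from 1359 and 1268 to 453 and 374 (-1.64 ± 0.17). Second, dimmer probe sets of Emp3 (-0.27), Cbx6 (-0.13), Rabgap1l (0.02) and Ak3 (0.425) did not pass. All 7 kept their calls without any 1 array (Scd2, Rabgap1l, Trim59, Cbx6, Ak3, Emp3 and Tspan32). The uncharacterised gene BC147527 fell from 218 and 149 to 48.5 and 7.7 (-2.33 ± 0.44). For BC147527 (-2.08, -2.58 and -1.61) the call was lost without U1, U2 or H2.

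Many genes for making ribosomes rose. Of 37 genes for ribosome biogenesis and RNA polymerase I 20 rose and none fell, 54.1% against 3.91% of all genes, with a median log2 change of 0.88 against 0.04 over all probe sets. Gnl3 (nucleostemin), a nucleolar GTPase, had signals of 108 and 164 on the unstimulated arrays and 1085 and 1176 on the HEL arrays (2.94 ± 0.20; adjusted p = 0.000233). Wdr75, needed for transcription of ribosomal DNA, had 104 and 112 on the unstimulated arrays and 415 and 473 on the HEL arrays (1.89 ± 0.19; adjusted p = 0.00157). Tsr1, an assembly factor of the small subunit, had signals of 341 and 463 on the unstimulated arrays and 1501 and 1393 on the HEL arrays (1.82 ± 0.18; adjusted p = 0.00129). The calls of these 3, the largest rises of the list (Gnl3, Wdr75 and Tsr1), held without any 1 array. The other 17 rises ranged down to that of Npm1, and the number of rises was 5 without U1, 11 without U2, 15 without H1, 8 without H2 and 12 without either HEL array of the IgMG cells. Of 33 cytosolic ribosomal protein genes none rose or fell, though 28 had positive values and 5 negative ones, between -0.98 and 0.76. Their median was 0.14 (0.03 with the Gapdh ratio as a covariate, 0.23 without H1 and 0.06 without H2), against 0.04 over all probe sets. In 3 of 33 ribosome biogenesis promoters (9.09%) the E-box CACGTG was found, close to the 9.93% of all genes.

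**Figure D4:**
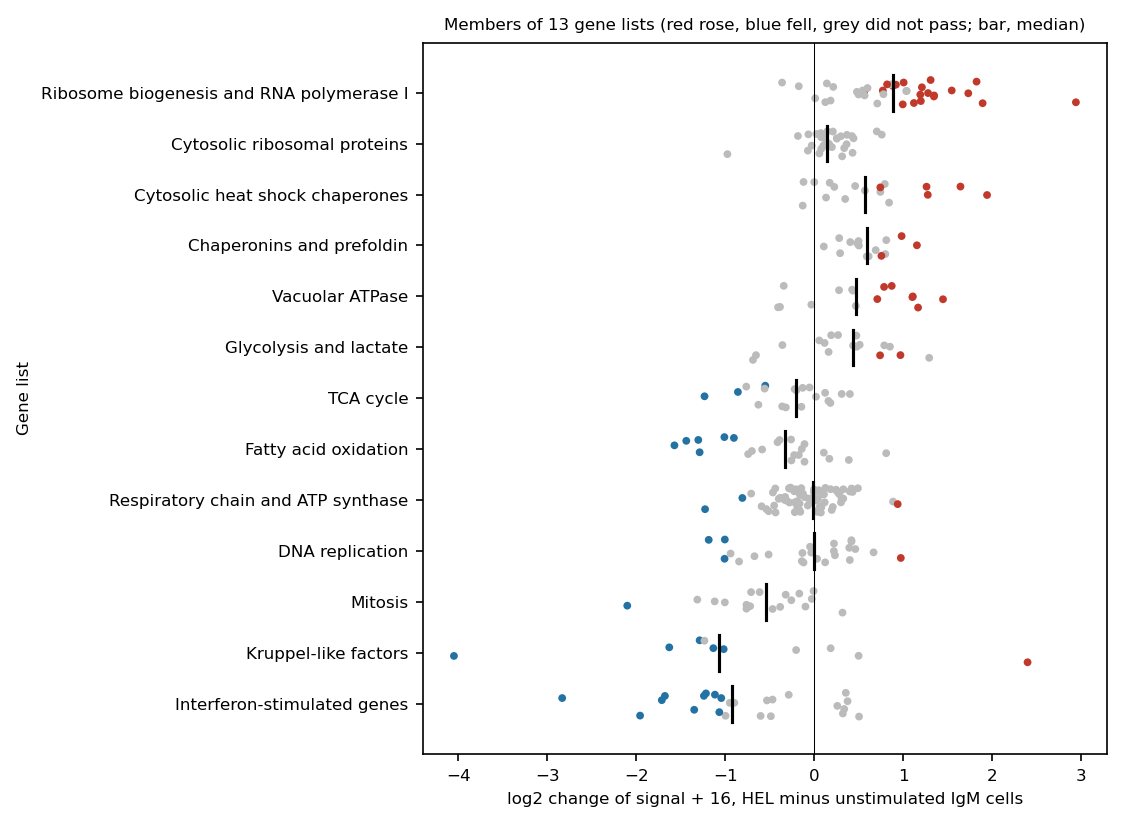
Log2 change of every measured member of 13 gene lists with HEL in IgM cells. Each point is a gene, red where it rose, blue where it fell and grey where it did not pass, and the bar is the list's median; the vertical position within a list is random. Ribosome biogenesis genes have a median of 0.88 and cytosolic ribosomal proteins of 0.14, and 17 of 18 mitosis genes lie below 0.

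Of 49 translation factors 7 rose (14.3%, against 3.91% of all genes) and 1 fell (2.0%, against 4.19%). Eif1a, which scans for the start codon, had signals of 157 and 176 on the unstimulated arrays and 535 and 481 on the HEL arrays (1.52 ± 0.15; adjusted p = 0.00112). Eif2s2, a subunit of the factor that carries the initiator tRNA, rose from 78.7 and 128 to 286 and 263 (1.31 ± 0.23). The cap-binding relative Eif4e2 rose from 66.4 and 41.8 to 128 and 119 (1.01 ± 0.24). Second probe sets of Eif2s2 (0.17) and Eif4e2 (0.54) did not pass. The single fall was that of Eif2ak3, caught by its name: it encodes PERK, the kinase that halts translation under stress of the endoplasmic reticulum, with 319.9 and 360.5 on the unstimulated arrays and 98.1 and 95.4 on the HEL arrays (-1.66 ± 0.16; adjusted p = 0.00129). Of 18 aminoacyl-tRNA synthetase genes only Rars passed (5.6%), rising from 267 and 289 to 689 and 1175 (1.64 ± 0.23). Of 17 nuclear transport genes 1 rose and 1 fell (5.9% each), so both lists lay near the background. The pore gene Nup62 rose from 218 and 238 to 408 and 594 (1.06 ± 0.19). The export receptor Xpo1 fell from 349.6 and 488 to 156 and 164 (-1.28 ± 0.18; adjusted p = 0.00614). The calls of Eif1a, Eif2ak3 and Xpo1 held without any 1 array. For Eif2s2 (1.01, 1.26 and 1.37) the call was lost without U1, H1 or H2. For Eif4e2 (0.76 to 1.27) the call was lost without any 1 of the 4 IgM arrays, or without any 1 IgMG array. For Rars (1.59) the call was lost without U1. For Nup62 (1.000, 1.12 and 0.80) the call was lost without U1, U2 or H2. The rises among translation factors numbered 1 without U1, 2 without U2, 3 without H1, 1 without H2 and 3 without either HEL array of the IgMG cells.

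Of the protein folding genes some rose and none fell. Of 17 cytosolic heat shock chaperones 5 rose (29.4%, against 3.91% of all genes), with a median of 0.57. Hsph1, a nucleotide exchange factor of HSP70, had signals of 307 and 383 on the unstimulated arrays and 1457 and 1272 on the HEL arrays (1.94 ± 0.21; adjusted p = 0.00186). Its co-chaperone Dnaja1 rose from 434 and 630.4 to 1704 and 1628 (1.64 ± 0.18). Hspa8 rose from 1184 and 1078 to 2678 and 2834 (1.27 ± 0.22). Of 15 chaperonin and prefoldin genes 3 passed, although all 15 had positive values (median 0.59): the mitochondrial HSP70 Hspa9 (from 380.5 and 462 to 924 and 978, 1.15 ± 0.17), Cct3 (from 303 and 345 to 603 and 708, 0.98 ± 0.17) and Pfdn2 (from 232 and 282 to 426 and 459.5, 0.75 ± 0.15). The calls of Hsph1 and Dnaja1 held without any 1 array. For Hspa8 (1.21 to 1.34) the call was lost without any 1 of the 4 IgM arrays. For Hspa9 (1.02 and 1.11) the call was lost without U1 or H2. For Cct3 (0.89, 1.07 and 0.87) the call was lost without U1, U2 or H2. For Pfdn2 (0.62 to 0.89) the call was lost without any 1 of the 4 IgM arrays, or without either IgMG HEL array. Rises among the heat shock genes numbered 3 without U1, 3 without U2, 3 without H1 and 3 without H2, and among the chaperonins 0 without U1, 1 without U2, 3 without H1 and 0 without H2.

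Of 18 genes of the endoplasmic reticulum and its stress response 5 rose (27.8%, against 3.91% of all genes). Ddit3 (CHOP), a factor of the stress response, had signals of 75.1 and 87.5 on the unstimulated arrays and 546 and 570.5 on the HEL arrays (2.56 ± 0.20; adjusted p = 0.000393). Atf4, which acts upstream of it, had signals of 718 and 868 on the unstimulated arrays and 2119.7 and 2739.5 on the HEL arrays (1.59 ± 0.18; adjusted p = 0.0021). Hspa5 (BiP), the main chaperone of this compartment, rose from 646 and 942 to 2023 and 2202 (1.42 ± 0.21). Ddit3 and Atf4 held their calls without any 1 array. For Hspa5 (1.15 and 1.36) the call was lost without U1 or H2. The median of the list was 0.23 (0.15 with the Gapdh ratio as a covariate and 0.14 without H2), and the rises numbered 2 without U1, 4 without U2, 4 without H1 and 3 without H2.

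Metabolic genes gave few calls by number. Of the glycolysis genes 11.8% rose and none fell, against 3.91% and 4.19% of all genes. Of the TCA cycle genes 15.8% fell and none rose. Of 17 glycolysis genes 2 rose and 14 had positive values (median 0.43, 0.24 without U2), and the rises numbered 0 without U1, 0 without U2, 1 without H1 and 0 without H2. Ldha, which turns pyruvate into lactate, rose from 960.3 and 949 to 1658 and 2134 (0.97 ± 0.18). Pgam1 rose from 426 and 376 to 693 and 663 (0.74 ± 0.13). Hk2, with signals of 30.1 and 55.5 on the unstimulated arrays and 119 and 130.0 on the HEL arrays (1.29 ± 0.33; adjusted p = 0.0562), did not pass, though it did in 4 of the 18 alternatives. Of 19 genes of the TCA cycle and its entry 3 fell and none rose: the kinase Pdk1, which shuts pyruvate dehydrogenase, fell from 266 and 313 to 108 and 119 (-1.23 ± 0.18). Suclg1 fell from 484 and 393 to 232 and 235 (-0.86 ± 0.15). Cs, the citrate synthase gene, fell from 706 and 674 to 474 and 457 (-0.55 ± 0.12). Of 73 genes of the respiratory chain and ATP synthase 1 rose and 2 fell, below the background of 3.91% and 4.19%: Ndufaf4, an assembly factor, had 0.94 ± 0.23, Uqcr11 -1.23 ± 0.24 and Ndufc1 -0.81 ± 0.18. Single arrays decided these calls. For Ldha (0.97, 0.96 and 0.79) the call was lost without U1, U2 or H2. For Pgam1 (0.65 to 0.82) the call was lost without any 1 of the 4 IgM arrays. For Pdk1 (-1.12) the call was lost without U2. For Suclg1 (-0.71 and -0.87) the call was lost without U1 or H2. For Cs (-0.58 to -0.52) and Ndufc1 (-0.92 to -0.70) the call was lost without any 1 of the 4 IgM arrays, or without either IgMG HEL array. For Ndufaf4 (0.74 to 1.13) the call was lost without any 1 of the 4 IgM arrays, or without any 1 IgMG array. For Uqcr11 (-1.01, -1.44 and -0.97) the call was lost without U1, U2 or H1, or without either IgMG HEL array. No call was made among 8 pentose phosphate genes.

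Some genes of lipid synthesis rose, and some of fatty acid oxidation fell. Among 21 sterol and fatty acid synthesis genes 3 rose, Fasn (from 151 and 256 to 591 and 559, 1.47 ± 0.22), the isoprenoid enzyme Idi1 (from 118 and 81.2 to 339 and 260.5, 1.46 ± 0.23) and the sterol desaturase Sc5d (from 63.5 and 79.0 to 173 and 170.0, 1.11 ± 0.20), and Scd2 fell as described. The 3 rises were 14.3% and the fall 4.8% of that list, against 3.91% and 4.19% of all genes. Of 22 fatty acid oxidation genes, a list chosen with the values seen, 6 fell (27.3%) and none rose, with a median of -0.33. Acaa2, the mitochondrial thiolase, had signals of 830.2 and 1005 on the unstimulated arrays and 399 and 325 on the HEL arrays (-1.30 ± 0.16; adjusted p = 0.00287). Acadm, the medium-chain dehydrogenase, had signals of 356 and 415 on the unstimulated arrays and 177 and 97.1 on the HEL arrays (-1.44 ± 0.24). Echs1 had signals of 80.7 and 127 on the unstimulated arrays and 12.8 and 38.3 on the HEL arrays (-1.57 ± 0.35). The call of Acaa2 held without any 1 array. For Acadm (-1.55 and -1.33) the call was lost without U1 or U2. For Echs1 (-1.85, -1.29 and -1.11) the call was lost without U1, U2 or H1, or without either IgMG HEL array. For Fasn (1.51) the call was lost without H2. For Idi1 (1.23) the call was lost without U2. For Sc5d (0.98 to 1.24) the call was lost without any 1 of the 4 IgM arrays. Eci2 had -1.29 ± 0.24, Scp2 -1.01 ± 0.20 and the peroxisomal thiolase Acaa1a -0.90 ± 0.15. A second Scp2 probe set had -0.39 and did not pass. For Eci2 (-1.48 to -1.09) the call was lost without any 1 of the 4 IgM arrays. For Scp2 (-1.23 to -0.80) the call was lost without any 1 of the 4 IgM arrays, or without either IgMG HEL array. For Acaa1a (-0.89, -0.92 and -0.90) the call was lost without U1, U2 or H2. The falls in the oxidation list numbered 1 without U1, 1 without U2, 4 without H1 and 3 without H2.

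Precursor supply showed a few large rises. Shmt1, which feeds one-carbon units from serine, had signals of 31.6 and 39.2 on the unstimulated arrays and 264 and 386 on the HEL arrays (2.71 ± 0.26; adjusted p = 0.00107). Ctps, which makes CTP, rose from 261 and 304 to 490.2 and 732 (1.05 ± 0.22). Srm, the spermidine synthase, had 50.2 and 84.1 on the unstimulated arrays and 367 and 628 on the HEL arrays (2.61 ± 0.29; adjusted p = 0.00196). Odc1, the first enzyme of polyamine synthesis, had signals of 143 and 120.2 on the unstimulated arrays and 166 and 169 on the HEL arrays (0.32 ± 0.20; adjusted p = 0.424). Of 138 solute carriers 6 rose and 7 fell, near the background, and the falls numbered 0 without U1, 2 without U2, 5 without H1 and 1 without H2. The zinc transporter Slc39a6 had 65.9 and 69.1 on the unstimulated arrays and 346 and 384 on the HEL arrays (2.19 ± 0.19; adjusted p = 0.000671). The phosphate transporter Slc20a1 had signals of 192 and 211 on the unstimulated arrays and 928 and 912 on the HEL arrays (2.11 ± 0.17; adjusted p = 0.000454). The vitamin C transporter Slc23a2 had signals of 152 and 169 on the unstimulated arrays and 494 and 628 on the HEL arrays (1.70 ± 0.18; adjusted p = 0.00173). The sugar transporter Slc50a1 fell from 1049 and 957 to 383 and 413 (-1.30 ± 0.21). Slc25a53 fell from 732 and 612 to 263 and 251 (-1.33 ± 0.18). Slc37a4, which carries phosphorylated glucose, fell from 145 and 131 to 49.6 and 55.5 (-1.17 ± 0.24). The calls of Shmt1, Srm, Slc39a6, Slc20a1 and Slc23a2 held without any 1 array. For Ctps (0.94, 1.15 and 0.77) the call was lost without U1, U2 or H2, or without either IgMG HEL array. For Slc50a1 (-1.23, -1.36 and -1.35) the call was lost without U1, U2 or H2. For Slc25a53 (-1.20) the call was lost without U1. For Slc37a4 (-1.23 to -1.10) the call was lost without any 1 of the 4 IgM arrays.

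Genes of the lysosome surface, where nutrient signals reach mTORC1, changed in both directions. This list and that of the vacuolar ATPase were chosen with the values seen. Flcn (folliculin), which acts on the Rag GTPases, had signals of 180.4 and 228 on the unstimulated arrays and 1315 and 1357 on the HEL arrays (2.62 ± 0.18; adjusted p = 0.000268). Rragc, one of those GTPases, had signals of 538 and 563 on the unstimulated arrays and 1298 and 1683 on the HEL arrays (1.40 ± 0.16; adjusted p = 0.00229). The groups did not overlap for either gene, as for every called probe set and for 50.2% of all probe sets. Of 18 genes 4 rose (22.2%, against 3.91% of all genes) and 3 fell (16.7%, against 4.19%). The scaffold gene Lamtor3 rose from 151 and 146 to 291 and 418 (1.15 ± 0.21). Lamtor4, of the same complex, fell from 400.4 and 378 to 136 and 168 (-1.27 ± 0.15; adjusted p = 0.00275). The chloride transporter Clcn7 rose from 179 and 162 to 324 and 475 (1.13 ± 0.21). The cholesterol exporter Npc1 fell from 331 and 346 to 168 and 141 (-1.06 ± 0.19). The calls of Flcn, Rragc and Lamtor4 held without any 1 array. For Lamtor3 (1.17, 1.13 and 0.90), Clcn7 (1.20, 1.06 and 0.87) and Npc1 (-1.09, -1.03 and -0.95) the call was lost without U1, U2 or H2. Trp53inp2, which takes part in autophagy, rose from 50 and 43.8 to 366 and 473 (2.78 ± 0.22; adjusted p = 0.000423), and the call of Trp53inp2 held as well.

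Of 15 subunits of the vacuolar ATPase, the pump that acidifies lysosomes and endosomes, 7 rose and none fell. That is 46.7% against 3.91% of all genes, but the list was chosen with the values seen, which itself favours a high share. The median was 0.47 (0.73 with the Gapdh ratio as a covariate and 0.75 without H2). Atp6v0d1, of the membrane part, had signals of 593 and 489.9 on the unstimulated arrays and 1222 and 1236 on the HEL arrays (1.17 ± 0.15; adjusted p = 0.00418). Atp6v0b, of the proton-conducting ring, had signals of 572 and 538 on the unstimulated arrays and 1198 and 1974 on the HEL arrays (1.45 ± 0.25; adjusted p = 0.0141). Atp6v1c1 rose from 254 and 235 to 589.5 and 498 (1.10 ± 0.17). Atp6v1d rose from 545 and 507 to 967 and 981 (0.87 ± 0.14). Atp6v1b2 rose from 815 and 788 to 1356 and 1428 (0.78 ± 0.12). Atp6v1a rose from 497 and 546 to 893 and 829 (0.71 ± 0.13). These 4 belong to the cytosolic part. The accessory gene Atp6ap2 rose from 142 and 118 to 248 and 355 (1.11 ± 0.21). The groups did not overlap for any of the 7, as for every called probe set and for 50.2% of all probe sets. The call of Atp6v0d1 held without any 1 array. For Atp6v0b (1.49, 1.40 and 1.09), Atp6v1d (0.92, 0.82 and 0.86), Atp6v1b2 (0.81, 0.76 and 0.75) and Atp6ap2 (1.23, 0.98 and 0.86) the call was lost without U1, U2 or H2. For Atp6v1c1 (1.15 and 1.05) the call was lost without U1 or U2. For Atp6v1a (0.64 to 0.77) the call was lost without any 1 of the 4 IgM arrays. The rises numbered 1 without U1, 1 without U2, 6 without H1 and 2 without H2. Of 21 lysosomal genes on a separate list Hexa (from 258 and 207 to 465 and 704, 1.25 ± 0.22) and Lamp1 (from 1558 and 1655 to 2476 and 2605, 0.66 ± 0.13) rose. That was 9.5%, against 3.91% of all genes. For Hexa (1.40, 1.10 and 0.96) the call was lost without U1, U2 or H2. For Lamp1 (0.61 to 0.70) the call was lost without any 1 of the 4 IgM arrays, or without either IgMG HEL array.

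The promoters of Trp53inp2 (chr2:155381756-155381855, plus strand) and Flcn (chr11:59810040-59810139, minus strand), both from 100 bases before the start to the base before it, each held the cAMP response element near the start. That of Atp6v0b (chr4:117887330-117887429, minus strand) held the E-box CACGTG at 2 places. E-boxes were found in 2 of 10 vacuolar ATPase promoters (20%), against 9.93% of all genes, in a list chosen with the values seen. Capitals mark the matches.
Trp53inp2, cAMP response element: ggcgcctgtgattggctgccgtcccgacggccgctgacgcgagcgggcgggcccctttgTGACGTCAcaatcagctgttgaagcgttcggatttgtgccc
Flcn, cAMP response element: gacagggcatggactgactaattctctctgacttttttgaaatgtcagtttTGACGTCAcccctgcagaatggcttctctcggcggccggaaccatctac
Atp6v0b, E-box: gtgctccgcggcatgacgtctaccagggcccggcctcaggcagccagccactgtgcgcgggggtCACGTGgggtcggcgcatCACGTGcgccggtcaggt

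Few cell cycle genes passed. Of the DNA replication genes 4.2% rose and 12.5% fell, against 3.91% and 4.19% of all genes. Of 17 genes of entry into the cycle only Cdk4 passed (5.9%), rising from 441 and 409 to 659 and 837 (0.78 ± 0.15). A second, dimmer Cdk4 probe set had a log2 change of 0.34 and did not pass. Ccnd2 had signals of 235 and 113 on the unstimulated arrays and 134 and 56.5 on the HEL arrays (-0.79 ± 0.42; adjusted p = 0.358). Ccnd3 had signals of 549 and 339 on the unstimulated arrays and 257 and 222 on the HEL arrays (-0.81 ± 0.22; adjusted p = 0.0709). Neither of these cyclin genes passed, and without U2 Ccnd3 did, with a log2 change of -1.15 (adjusted p = 0.0322 by limma), while Ccnd2 lay between -1.31 and -0.26 without 1 array. Of 24 DNA replication genes Pcna, the sliding clamp, rose from 678 and 645 to 1489.9 and 1154 (0.97 ± 0.17), and Rfc1, Rpa1 and the thymidine kinase Tk1 fell, with -1.19 ± 0.21, -1.01 ± 0.18 and -1.01 ± 0.25. Of 18 mitosis genes 17 had negative values, but only the kinase gene Aurkb fell past the threshold, from 150.4 and 105 to 29.2 and 8.1 (-2.10 ± 0.44), and the median was -0.54 (-0.21 without U1, -0.96 without H1 and -0.31 without H2). The mitosis fall was 5.6% of its list. Each of these calls was lost in some fits. For Cdk4 (0.84, 0.73 and 0.62) the call was lost without U1, U2 or H2, or without either IgMG HEL array. For Pcna (1.01, 0.94 and 0.79) and Rpa1 (-1.02, -0.99 and -0.85) the call was lost without U1, U2 or H1. For Rfc1 (-1.28 to -1.09) the call was lost without any 1 of the 4 IgM arrays. For Tk1 (-1.25 to -0.77) the call was lost without any 1 of the 4 IgM arrays, or without any 1 IgMG array. For Aurkb (-1.87, -2.33 and -1.65) the call was lost without U1, U2 or H2.

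Of 12 genes of the BCL2 family Mcl1, a protector from apoptosis, was the only call, with signals of 2064 and 2020.4 on the unstimulated arrays and 1172 and 978 on the HEL arrays (-0.92 ± 0.13; adjusted p = 0.00674). Bcl2l1 (BCL-xL) had 539 and 449 on the unstimulated arrays and 421 and 224 on the HEL arrays (-0.65 ± 0.26; adjusted p = 0.208), and passed without H1 (-1.08; adjusted p = 0.0283 by limma). Bcl2 had signals of 88.7 and 215 on the unstimulated arrays and 106 and 96.5 on the HEL arrays (-0.41 ± 0.36; adjusted p = 0.601). The single fall among the 12 BCL2 family genes was 8.3%, against 4.19% of all genes. Of 8 caspases, a list chosen with the values seen, 3 fell (37.5%, against 4.19% of all genes). Casp2 fell from 543 and 669.8 to 223 and 276 (-1.23 ± 0.17; adjusted p = 0.00542). Casp9, the initiator of the mitochondrial pathway, fell from 178 and 175 to 50.2 and 21.6 (-1.95 ± 0.36). Casp8, the initiator of the death receptor pathway, fell from 203 and 241 to 116 and 88.9 (-1.01 ± 0.23). The 3 dimmer Casp9 probe sets had log2 changes of -0.10, 0.27 and -0.01, none of which passed. The call of Casp2 held without any 1 array. For Mcl1 (-0.91) the call was lost without U1. For Casp9 (-1.94, -1.96 and -1.54) the call was lost without U1, U2 or H2. For Casp8 (-1.18 to -0.85) the call was lost without any 1 of the 4 IgM arrays, or without either IgMG HEL array. The falls among the caspases numbered 1 without U1, 1 without U2, 2 without H1 and 1 without H2.

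Interferon-stimulated genes lay lower with antigen. Of 24 measured 10 fell and none rose, 41.7% against 4.19% of all genes, with a median of -0.92. That median was -0.61 with the Gapdh ratio as a covariate and -0.39 without H2. Gbp3, a guanylate-binding GTPase, had signals of 944 and 762 on the unstimulated arrays and 188 and 56.0 on the HEL arrays (-2.83 ± 0.41; adjusted p = 0.00638). Ifit3 had signals of 142 and 224 on the unstimulated arrays and 45.4 and 24.9 on the HEL arrays (-1.96 ± 0.32; adjusted p = 0.0107). Trim21, an antibody receptor of the cytosol, had signals of 468 and 461 on the unstimulated arrays and 147 and 116 on the HEL arrays (-1.71 ± 0.21; adjusted p = 0.00315). The antiviral gene Mx1 fell from 231 and 156 to 36.8 and 62.8 (-1.68 ± 0.29). The GTPase Ifi47 fell from 610.2 and 603 to 256 and 239 (-1.24 ± 0.20). The H2 signal was the lowest for Gbp3, Ifit3, Trim21 and Ifi47, and H1 was the lowest for Mx1. The call of Trim21 held without any 1 array. For Gbp3 (-2.68) the call was lost without U1. For Ifit3 (-1.66 and -1.67) the call was lost without U2 or H2. For Mx1 (-1.42 and -1.39) the call was lost without U1 or H1. For Ifi47 (-1.23, -1.25 and -1.20) the call was lost without U1, U2 or H2. The falls numbered 2 without U1, 3 without U2, 8 without H1 and 3 without H2. Genes of MHC class I presentation moved the same way in 2 of 11 cases, with Tap1 at -0.66 ± 0.14 and Psmb9 at -0.88 ± 0.17, and of 13 MHC class II genes Ifi30, a thiol reductase of that pathway, had -1.13 ± 0.27. These falls were 18.2% of the class I and 7.7% of the class II genes, against 4.19% of all genes. For Tap1 (-0.73 to -0.59) the call was lost without any 1 of the 4 IgM arrays. For Psmb9 (-1.04 to -0.71) the call was lost without any 1 of the 4 IgM arrays, or without either IgMG HEL array. For Ifi30 (-0.66, -1.12 and -1.13) the call was lost without U1, H1 or H2, or without any 1 IgMG array.

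The interferon-stimulated response element, searched on both strands, was found in 8 of 18 promoters of that list (44.4%) and in 3.39% of all genes. It is shown for both genes with the largest falls of the list. The stretches are from Gbp3 (chr3:142559992-142560021, plus strand, 52 to 23 bases before a listed start) and Ifit3 (chr19:34583345-34583444, plus strand, 184 to 85 bases before the start). In both the matches lie on the strand opposite to the gene.
Gbp3, response element: gacacagTTTCAGTTTCTATTTCccagatc
Ifit3, response element: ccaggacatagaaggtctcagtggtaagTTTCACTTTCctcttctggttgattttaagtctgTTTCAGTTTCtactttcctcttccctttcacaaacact

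Clock genes, a list chosen with the values seen, rose in 3 of 15 cases and fell in 1. Per1, the light- and signal-inducible period gene, had signals of 84.9 and 124 on the unstimulated arrays and 1025 and 1647 on the HEL arrays (3.47 ± 0.24; adjusted p = 0.000267). Cry1, its repressor partner, rose from 294 and 366 to 559.7 and 578 (0.77 ± 0.16). Nr1d2 rose from 23.7 and 36.5 to 95.2 and 112 (1.39 ± 0.34). Noct, a deadenylase-like gene with a daily rhythm, fell from 1166 and 1141 to 709.7 and 520.3 (-0.91 ± 0.17), with 0.62 for another, dimmer probe set that did not pass. The call of Per1 held without any 1 array. For Cry1 (0.61 to 0.92) and Nr1d2 (1.18 to 1.59) the call was lost without any 1 of the 4 IgM arrays, or without either IgMG HEL array. For Noct (-0.89, -0.92 and -0.69) the call was lost without U1, U2 or H2.

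Mitochondrial protein import genes, also chosen with the values seen, rose in 3 of 17 cases (17.6%, against 3.91% of all genes). Timm8a1 had signals of 118 and 117 on the unstimulated arrays and 464 and 415 on the HEL arrays (1.77 ± 0.18; adjusted p = 0.0015). Timm23, the channel of the inner membrane, had signals of 553 and 589 on the unstimulated arrays and 1224 and 1359 on the HEL arrays (1.15 ± 0.13; adjusted p = 0.00188). Timm17b, its partner, rose from 406 and 430.2 to 621 and 752 (0.69 ± 0.15). The calls of Timm8a1 and Timm23 held without any 1 array. For Timm17b (0.65, 0.73 and 0.55) the call was lost without U1, U2 or H2, or without either IgMG HEL array.

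Among other regulators, 4 of 13 Pim, SOCS and STAT genes rose (30.8%, against 3.91% of all genes). Stat4 rose from 90.6 and 230.3 to 703 and 646 (2.09 ± 0.34). The kinase gene Pim3 rose from 82.3 and 74.9 to 346 and 306 (1.85 ± 0.37). Socs5 rose from 13.4 and 33.1 to 89.9 and 78.7 (1.40 ± 0.31). Zfp36, which destabilises cytokine messengers, rose from 696 and 931 to 1858 and 1692 (1.12 ± 0.16). Btg1 rose from 1744 and 1857 to 2470.0 and 2946 (0.58 ± 0.14), in a group of 7. Hes1, a target of Notch, fell from 618 and 254 to 114 and 135 (-1.56 ± 0.37). It was the only call among 11 Notch genes (9.1%, against 4.19% of all genes). Marcksl1, an actin-linked substrate of protein kinase C, rose from 85.1 and 134 to 1364 and 1139.7 (3.36 ± 0.21; adjusted p = 0.000177). Ifrd1, an early response gene, rose from 61.8 and 83.4 to 408 and 279 (2.01 ± 0.28). The call of Marcksl1 held without any 1 array. For Stat4 (2.03 and 2.15) the call was lost without H1 or H2. For Pim3 (1.77 to 1.94) the call was lost without any 1 of the 4 IgM arrays, or without either IgMG HEL array. For Socs5 (1.03, 1.32 and 1.48) and Hes1 (-0.95, -1.45 and -1.67) the call was lost without U1, H1 or H2, or without either IgMG HEL array. For Zfp36 (0.92) and Ifrd1 (1.83) the call was lost without U1. For Btg1 (0.54, 0.62 and 0.45) the call was lost without U1, U2 or H2, or without any 1 IgMG array. Near the background of 3.91%, 3 of 51 splicing genes rose (5.9%), Prpf38a (1.15 ± 0.19), Hnrnpab (0.98 ± 0.19) and Hnrnpu (0.88 ± 0.20), and of 22 actin and tubulin genes Tuba1c rose (0.76 ± 0.17; 4.5%), while Actb had -0.31 ± 0.33. For Prpf38a (1.14, 1.16 and 0.97) the call was lost without U1, U2 or H2. For Hnrnpab (0.79, 1.16 and 0.88) the call was lost without U1, U2 or H2, or without either IgMG HEL array. For Hnrnpu (0.64, 1.002 and 0.76) the call was lost without U1, H1 or H2, or without either IgMG HEL array. For Tuba1c (0.55 to 0.96) the call was lost without any 1 of the 4 IgM arrays, or without either IgMG HEL array.

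**Figure D5:**
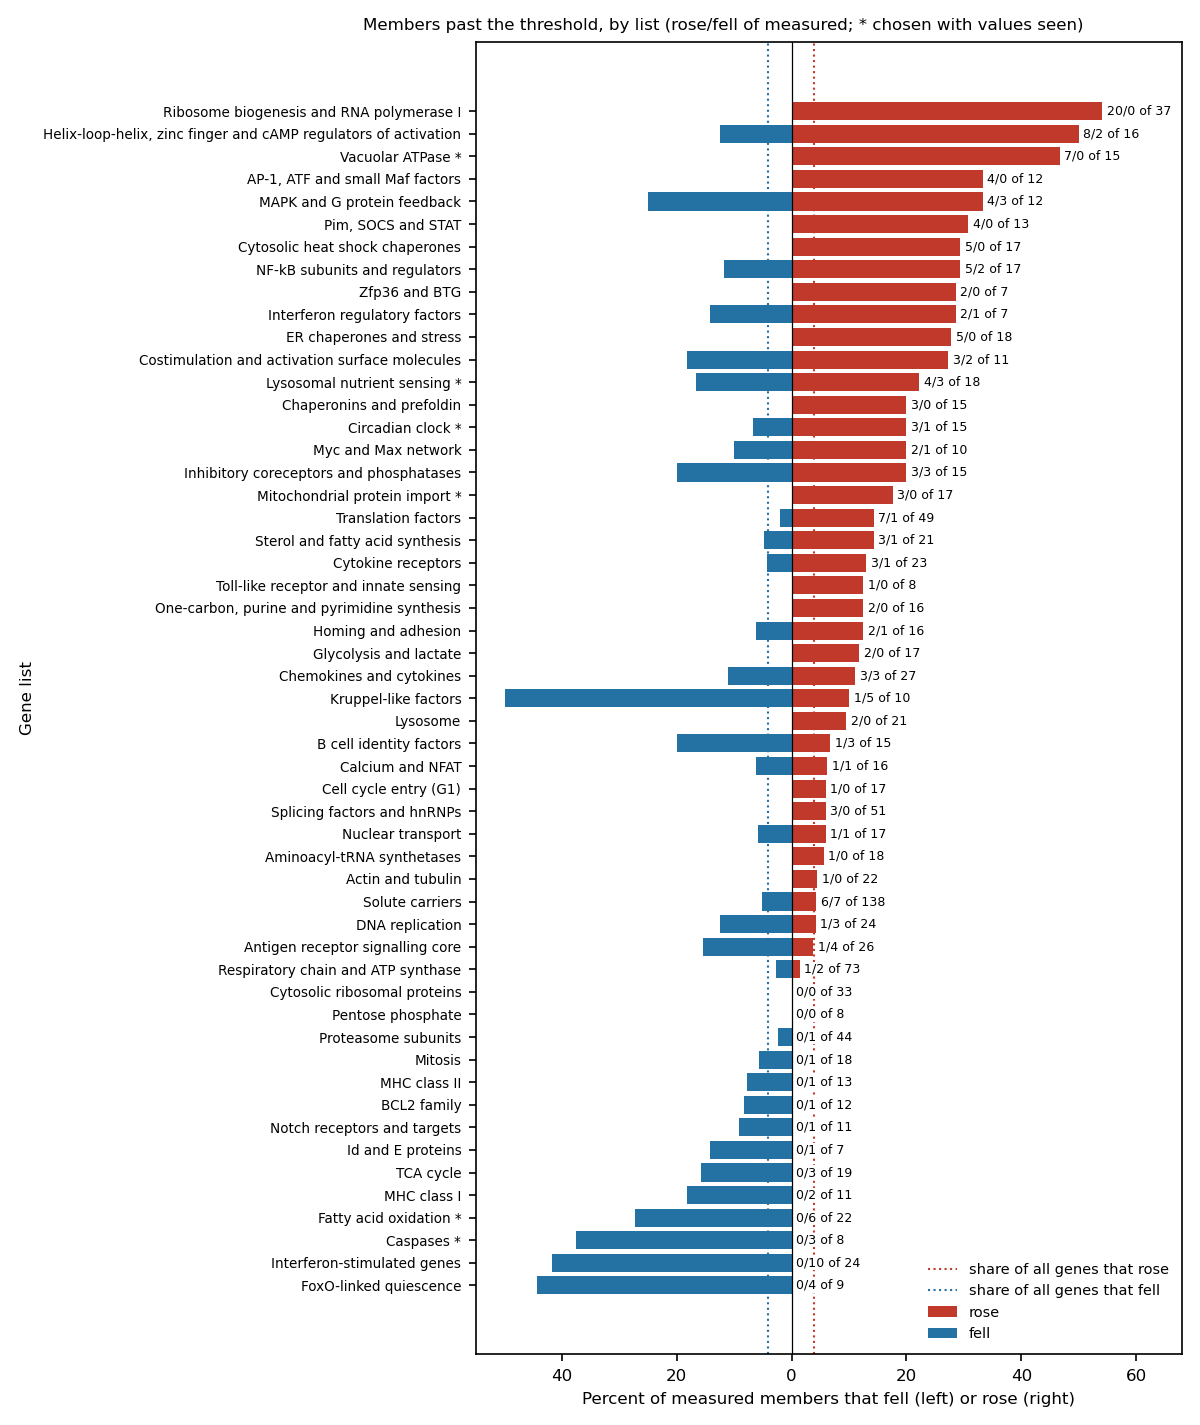
Percent of measured members that rose (red, to the right) or fell (blue, to the left) with HEL in IgM cells, for the gene lists with 7 or more measured members. Labels give rises and falls of the number measured, and the dotted lines are the shares over all 8251 genes, 3.91% and 4.19%. Ribosome biogenesis reaches 54.1% on the right and Kruppel-like factors 50% on the left, and the asterisk marks lists chosen with the values seen.

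Probe sets of the same gene were compared as a check within the arrays. For 196 called genes with several probe sets, the other 249 probe sets had the same sign in 194 cases, the same call in 34 and the opposite call in none. Of the 86 others with a mean signal over 100, 76 had the same sign and 29 the same call.

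The responses of IgM and IgMG cells were set side by side once, in the same fit. By limma no probe set passed for the difference of the responses, the smallest adjusted p was 0.248, and 1079 had an unadjusted p under 0.05, where 621.1 would fall there by chance. The probe sets that rose in IgM cells had a median log2 change of 0.70 in IgMG cells, against 1.18 in the cells they were chosen in, and those that fell had -0.59 against -1.09. The choice of probe sets in IgM cells itself enlarges the second value of each pair. Ccl4 had IgMG signals of 23.7 and 18.1 unstimulated and 205 and 228 with HEL, a change of 2.66 ± 0.29, and a difference, IgMG minus IgM, of -3.28 ± 0.41 (adjusted p = 0.248). Klf2 had 1011 and 773 unstimulated and 515 and 426 with HEL (-0.89 ± 0.38), with a difference of 3.16 ± 0.54 (adjusted p = 0.485). Cd83 and Myc, with 3.78 ± 0.28 and 3.54 ± 0.21 in IgMG cells, had differences of 0.09 ± 0.40 (adjusted p = 0.967) and -0.15 ± 0.30 (adjusted p = 0.914). The IgMG arrays pooled more mice than the IgM arrays, so receptor and size of the pool cannot be told apart.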

How the data were processed

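Affymetrix MG-U74Av2 arrays of 8 samples were used as the authors deposited them: a linear array intensity for each of 12488 probe sets, the signal of MAS 5 per the submitters' processing notes, with the same trimmed mean on every array (150.1). Of these, 66 control probe sets were left out and 12422 tested. limma 3.58.1 in R 4.3.3 fitted log2(signal + 16) on all 8 arrays with a coefficient for each of the 4 groups, which share 1 estimate of the spread (4 residual and 4.267 prior degrees of freedom), with moderated variances (trend) and Benjamini-Hochberg adjustment at 0.05 over all tested probe sets. Fold and ratio values are not comparable between probe sets, and scaling to a common trimmed mean removes any change in total RNA per cell. Median signals of the 4 IgM arrays lay between 40.7 and 44.9, and 2 arrays a group limit the precision.

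Gene symbols came from the platform annotation: 1 symbol was listed for 10833 probe sets, of which 10817 matched RefSeq, more than 1 for 396, and no symbol for 1193. Named genes were the 15 largest rises and falls, the 8 largest gains and losses in signal, genes going from under 50 to over 500 or back, the 3 largest of each list either way and a set of usual markers, and some genes were added with their values seen. The members and all lists were chosen with earlier results of these data known, and 6 of 56 lists with the values seen. Motifs were searched in the 250 bases before the start of 6576 genes. On simulated data with 200 changed probe sets of 12422, the fit recovered 11.5% at a log2 change of 1 and 77.5% at 2. The changed probe sets were drawn from the brighter 60%, so recovery of dim ones was not tried. Offsets of 1 and 32, other scalings, a filter on dim probe sets (brightest 60%), other variance models, a covariate and single arrays left out were tried. Samples with the same number in the title were not treated as pairs, since the labels do not say whether they shared mice.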

Additional observations from a re-analysis of the deposited data

Results flagged for a closer look

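Clcn7, a lysosomal chloride transporter, and Socs5, a suppressor of cytokine signalling, were higher on both HEL arrays of IgM cells and lower on both HEL arrays of IgMG cells than on the unstimulated ones. The difference of the log2 changes, IgMG minus IgM, was -1.41 for Clcn7 and -1.79 for Socs5. By limma neither difference passed, with an adjusted p = 0.485 for each.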

How the results depend on the processing

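The IgM response (817 probe sets called) depended most on the arrays in the fit. It fell to 421 with the 4 IgM arrays alone, 383 with the Gapdh ratio as a covariate and 246 at an adjusted p under 0.01, and ranged from 189 to 888 without 1 array. With the experiment number as a replicate block 615 were called. Deviations of same-numbered arrays had correlations of -0.105 to 0.013, which cannot show whether those arrays shared mice. Of the 191 called named genes 73 kept their call in all 18 alternatives and none reversed. The difference of the receptors' responses gave 0 calls by limma in every alternative run, with 705 to 1568 probe sets at an unadjusted p under 0.05.

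Some named genes that did not pass changed sign: with the Gapdh ratio as a covariate Ighm became -0.006, Jun -0.227 and Actb 0.159, and with quantile normalization Jun became -0.014. Without 1 array Jun lay between -0.32 and 0.473, Bcl2 between -0.98 and 0.162, Actb between -0.701 and 0.087, S100a8 between -2.429 and 0.133 and Fcer2a between -0.657 and 0.973, each over the fits without 1 array. The cause was not tested. Few arrays and dim signals limit what can be called.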
